A study of Mus musculus with 14 samples.

Results

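The genes described here are 10 members of the NF-κB pathway and its feedback loop in the mouse kidney, namely *Tnf*, *Tnfrsf1b*, *Traf1*, *Birc3*, *Nfkb1*, *Nfkb2*, *Relb*, *Nfkbia*, *Tnfaip3*, and *Icam1*. They were taken by gene symbol from the 21878 genes with a deposited value, and all 10 were found. All 10 were also among the 14912 genes that were tested, which needed an FPKM (fragments counted per length of transcript and per sequencing depth of the library) of at least 0.1 in at least 3 mice. *Tnf* reached 0.1 in 2 of 3 control mice of each genotype and in every diabetic mouse, and the other 9 genes exceeded 0.1 in every mouse.

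Kidney RNA was sequenced from 14 male C57BL/6J mice. WT control mice (n = 3) and *Cfb*-/- control mice (n = 3) received chow with 10% of calories from fat and citrate buffer, whereas WT diabetic mice (n = 4) and *Cfb*-/- diabetic mice (n = 4) received a high-fat diet (HFD, 60% of calories from fat) and streptozotocin (STZ) at 60 mg/kg for 5 days after 4 weeks of HFD. *Cfb* encodes complement factor B, which is needed by the alternative pathway of complement, and STZ destroys insulin-producing cells. Diet and STZ always went together, so their effects cannot be told apart. The labels give a time of 34 weeks for all 14 mice without saying from when, describe the deletion as a knockdown, and carry the diabetic treatment text for control mice as well; groups therefore follow the sample names, which fit the diet and disease labels. Each sample is 1 mouse, and p-values measure the spread between these mice.

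The summed FPKM per mouse was 330246 to 488196, and the depth in reads is not given by these values. The sums ran up to about 365000 in diabetic mice and from about 372900 in control mice, so they did not overlap. Between mice of a group, Pearson's r over genes was at least 0.990, and no pair of files was identical. *Cfb* itself was at 56.7 to 131 FPKM in the 7 WT mice and at 1.13 to 2.22 FPKM in the 7 *Cfb*-/- mice, which fits the labels. Proximal tubule markers (summed FPKM 667 to 2730) and podocyte markers (42.2 to 136) were present in every mouse, as the kidney label requires. Urothelium markers differed between mice, from 0.280 to 50.5 summed FPKM, and adipocyte markers from 0 to 31.1.

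NF-κB is a family of dimeric transcription factors that is held in the cytoplasm by inhibitors. Receptors for TNF and for microbial products activate a kinase complex that marks the inhibitor IκBα for degradation, and p50/p65 dimers then enter the nucleus. In the noncanonical branch, p100 is processed to p52, which pairs with RelB. Many NF-κB targets encode parts of the pathway, including inhibitors that end the response, so transcript levels of such genes are often used as a readout of the pathway. In the kidney, tubular cells, endothelium, and macrophages can all transcribe them. In whole-tissue RNA, more cells of a type and more RNA per cell cannot be told apart.

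Because several of these genes are known to be NF-κB targets themselves, their promoters were searched for NF-κB motifs. Promoters came from RefSeq (GRCm38.p6, the build the labels give), where 8 of 10 genes had 11 entries, with no entry for *Nfkb1* and *Relb*. The 250 bases before each start were searched on both strands. The loose motif GGGNNNNNCC was in 10 of 11 promoters (7 of 8 genes), against 45.8% of all 32851 promoters. The stricter NF-κB consensus decamer, each match of which also matches the loose motif, was in 5 of 11 promoters (3 of 8 genes), against 7.25% of all promoters. The 3 genes were both inhibitors, *Nfkbia* and *Tnfaip3*, and *Nfkb2*. All 3 promoter entries of *Nfkb2* matched, so the 5 promoters are not independent of each other. Both background shares are per promoter, and no share per gene was taken. Their stretches are shown on the strand of the gene with the decamers in capitals, since they place the motif beside genes whose levels follow.
Nfkbia, chr12:55492657-55492686, minus strand: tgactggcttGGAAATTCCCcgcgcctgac
Tnfaip3, chr10:19015411-19015432, minus strand: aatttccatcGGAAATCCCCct
Tnfaip3, chr10:19015516-19015545, minus strand: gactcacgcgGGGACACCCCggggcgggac
Nfkb2, chr19:46304689-46304717, plus strand: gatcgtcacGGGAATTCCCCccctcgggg
Nfkb2, chr19:46304716-46304736, plus strand: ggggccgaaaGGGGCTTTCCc
Nfkb2, chr19:46305449-46305478, plus strand: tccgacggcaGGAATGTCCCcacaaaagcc
Nfkb2, chr19:46305695-46305724, plus strand: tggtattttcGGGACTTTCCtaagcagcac
In *Nfkbia* the decamer lay 29 to 20 bases before the start. In *Tnfaip3* a decamer lay 12 to 3 bases before the start and another 125 to 116 bases before it. In *Nfkb2*, which has 3 promoter entries, 2 overlapping decamers stand as 1 run of capitals. A match describes these letters and does not show that the site is bound. In the GENCODE M21 annotation the *Nfkbia* and *Tnfaip3* stretches overlapped no exon, whereas 3 of 4 *Nfkb2* stretches lay in exons of other *Nfkb2* transcripts and 3 of 4 in exons of a bidirectional noncoding transcript.

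The first comparison asked how the pathway genes differ between diabetic and control kidneys. In WT mice all 10 genes rose in diabetes (limma on log2(FPKM + 0.1) with Benjamini-Hochberg adjustment over all tested genes, adjusted p under 0.05), beside a background of 36.2% of tested genes called higher. In *Cfb*-/- mice all 10 rose as well, beside a background of 27.4%. The 10 genes and the lists below were chosen with earlier results of these data known. Their counts beside such shares are therefore descriptions and no test of enrichment. For all 10 genes every diabetic mouse was above every control mouse of its genotype, as was so for 35.5% of tested genes in WT mice and 33.6% in *Cfb*-/- mice. On the log2 scale the middle of the 10 changes was 1.22 for WT and 1.39 for *Cfb*-/- mice, whereas the median of all tested genes was 0.29 and 0.22. After subtraction of that median the 10 genes rose by 0.67 (*Nfkbia*) to 1.43 (*Tnf*) in WT mice and by 0.57 (*Nfkbia*) to 1.77 (*Relb*) in *Cfb*-/- mice. A rise of more than 1 on the log2 scale was called for 8 of 10 genes in WT mice (all but *Nfkbia* and *Traf1*), beside 15.4% of tested genes, and for 9 of 10 in *Cfb*-/- mice (all but *Nfkbia*), beside 12.9%. Both comparisons concern separate mice, so their mean levels share no samples. All groups were fitted together, however, and the standard error of a gene came from the pooled spread of all mice. It was thus the same in both genotypes, and the p-values of the comparisons are not independent of each other.

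**Figure D1:**
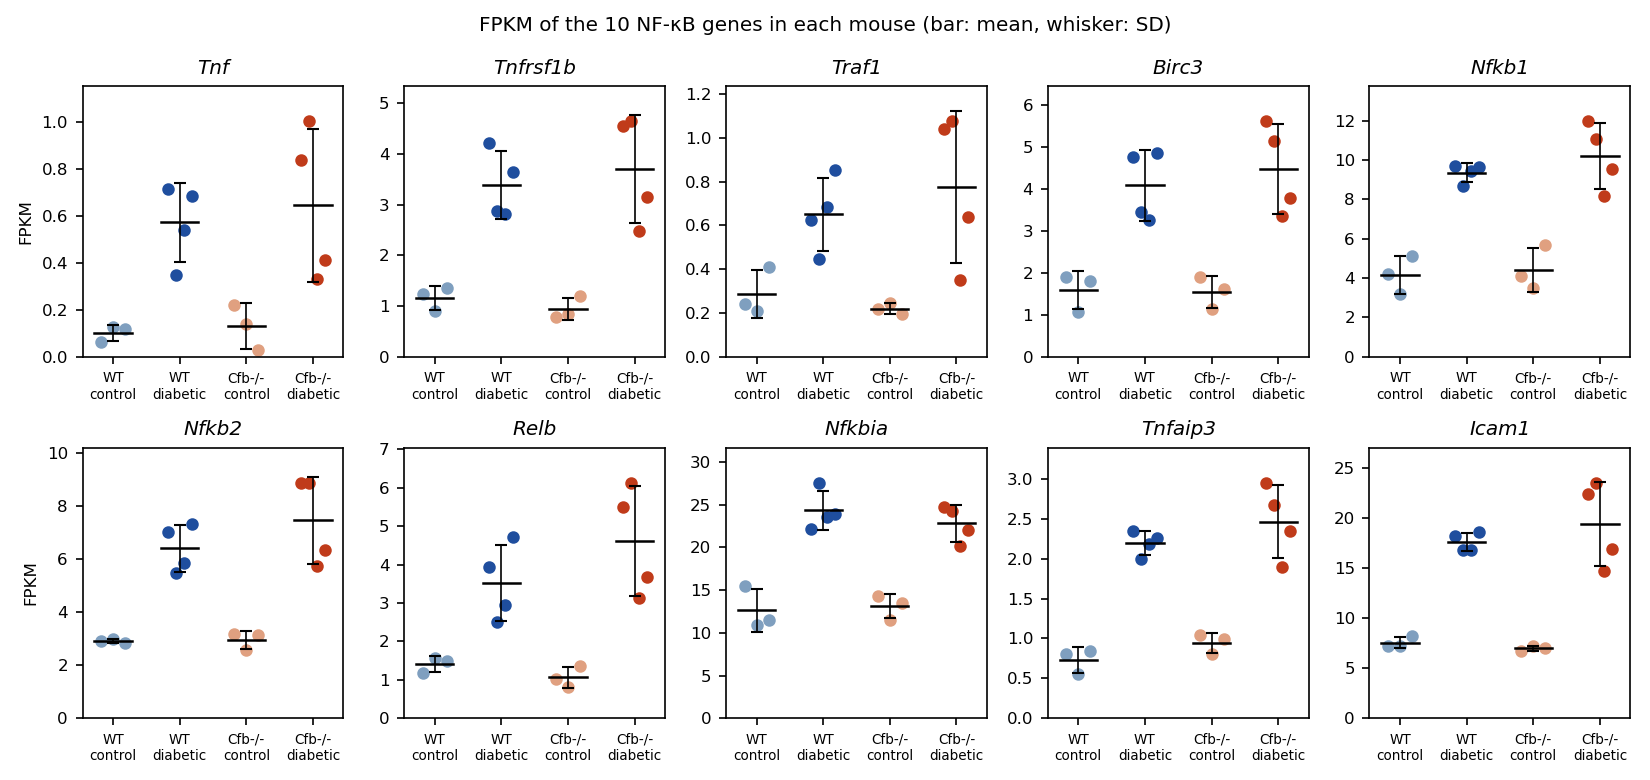
FPKM of each of the 10 NF-κB genes (y axis, starting at 0) in each of the 14 mice (points) by group (x axis), with the group mean as a bar and the SD as a whisker. In every panel the diabetic mice of a genotype sit above its control mice, and the diabetic mice of both genotypes overlap.

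*Tnf* (chr17:35199367-35202007) encodes the cytokine TNF, which both activates NF-κB and is induced by it. It was the least abundant of the 10 genes. Its FPKM was 0.0622, 0.127, and 0.117 in WT control mice 1 to 3 and 0.716, 0.348, 0.541, and 0.686 in WT diabetic mice 1 to 4. In *Cfb*-/- control mice it was 0.222, 0.140, and 0.0299, and in *Cfb*-/- diabetic mice it was 0.838, 1.002, 0.331, and 0.410. Every diabetic mouse was higher than every control mouse of either genotype, but *Cfb*-/- diabetic mice 1 and 2 held more than double the level of mice 3 and 4. The mean FPKM was 5.61-fold higher in diabetes in WT mice and 4.93-fold higher in *Cfb*-/- mice. On the log2 scale with 0.1 added, which understates changes at such low levels, the rise was 1.71 ± 0.37 (SE, adjusted p = 0.00213) in WT mice and 1.68 ± 0.37 (SE, adjusted p = 0.00296) in *Cfb*-/- mice.

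*Tnfrsf1b* (chr4:145212368-145246870) encodes TNF receptor 2, which is found mainly on leukocytes and endothelium. Its FPKM was 1.24, 0.901, and 1.36 in WT control mice and 4.21, 2.87, 2.83, and 3.64 in WT diabetic mice. It was 0.788, 0.849, and 1.2 in *Cfb*-/- control mice and 4.55, 4.65, 2.48, and 3.15 in *Cfb*-/- diabetic mice. The lowest diabetic mouse thus exceeded the highest control mouse by a wide margin in both genotypes. The log2 rise was 1.46 ± 0.24 (SE, adjusted p = 2.78e-04) in WT mice and 1.84 ± 0.24 (SE, adjusted p = 5.67e-05) in *Cfb*-/- mice. *Tnfrsf1a*, which encodes the more widely expressed TNF receptor 1, was at 20.8 to 22.0 FPKM in WT control mice and 39.1 to 45.4 FPKM in WT diabetic mice, a log2 rise of 0.96 (adjusted p = 3.34e-05), and it rose by 1.06 in *Cfb*-/- mice (adjusted p = 1.94e-05).

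*Traf1* (chr2:34941750-34961812) and *Birc3* (chr9:7847468-7873205) encode adaptors of the TNF receptor complex. TRAF1 has no ligase domain of its own, and cIAP2, the product of *Birc3*, is a ubiquitin ligase that promotes survival signals. *Traf1* was at 0.241, 0.208, and 0.410 FPKM in WT control mice and at 0.623, 0.446, 0.685, and 0.851 FPKM in WT diabetic mice. The groups were close, since WT control mouse 3 was just below WT diabetic mouse 2, and the log2 rise of 0.97 ± 0.31 (SE, adjusted p = 0.0220) had the highest adjusted p of the 10 in WT mice. With quantile normalization it was 0.20 (adjusted p = 0.564), and without WT control mouse 2 it was 0.82 (adjusted p = 0.0955). In *Cfb*-/- mice *Traf1* was at 0.220, 0.247, and 0.193 FPKM in controls and at 1.04, 1.08, 0.349, and 0.640 FPKM in diabetes, a log2 rise of 1.35 ± 0.31 (SE, adjusted p = 0.00420). *Cfb*-/- diabetic mouse 3 was thus below all 4 WT diabetic mice.

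*Birc3* was at 1.90, 1.07, and 1.82 FPKM in WT control mice and at 4.77, 3.46, 3.27, and 4.85 FPKM in WT diabetic mice. In *Cfb*-/- mice it was at 1.90, 1.14, and 1.61 FPKM in controls and at 5.61, 5.15, 3.35, and 3.78 FPKM in diabetes. Control mice of both genotypes covered nearly the same range, with no value above 2 FPKM, and every diabetic mouse was above 3 FPKM. The log2 rise was 1.32 ± 0.25 (SE, adjusted p = 7.44e-04) in WT mice and 1.47 ± 0.25 (SE, adjusted p = 4.01e-04) in *Cfb*-/- mice.

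Among the subunits, *Nfkb1* (chr3:135584655-135691969) encodes p105, the precursor of p50. It was at 4.21, 3.19, and 5.10 FPKM in WT control mice and at 9.68, 8.66, 9.43, and 9.66 FPKM in WT diabetic mice. It was at 4.09, 3.52, and 5.67 FPKM in *Cfb*-/- control mice and at 12.0, 11.1, 8.15, and 9.56 FPKM in *Cfb*-/- diabetic mice. The 4 WT diabetic mice were tightly grouped (9.36 ± 0.481 FPKM, SD), whereas *Cfb*-/- diabetic mice were spread (10.2 ± 1.68 FPKM, SD) and lay both above and below them. The mean FPKM was 2.25-fold higher in diabetes in WT mice (adjusted p = 1.96e-04) and 2.30-fold higher in *Cfb*-/- mice (adjusted p = 1.87e-04).

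*Nfkb2* (chr19:46300994-46312400) encodes p100, which is both an inhibitor and the precursor of p52. It was at 2.92, 2.98, and 2.83 FPKM in WT control mice and at 7.02, 5.48, 5.87, and 7.31 FPKM in WT diabetic mice. It was at 3.17, 2.58, and 3.16 FPKM in *Cfb*-/- control mice and at 8.87, 8.885, 5.74, and 6.37 FPKM in *Cfb*-/- diabetic mice. WT control mice differed by less than 0.2 FPKM, and the lowest diabetic mouse of either genotype was well above all 6 control mice. The mean FPKM was 2.21-fold higher in diabetes in WT mice (adjusted p = 1.51e-04) and 2.51-fold higher in *Cfb*-/- mice (adjusted p = 5.75e-05).

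*Relb* (chr7:19606217-19629438) encodes RelB, the partner of p52. It was at 1.17, 1.575, and 1.502 FPKM in WT control mice and at 3.93, 2.496, 2.94, and 4.71 FPKM in WT diabetic mice. It was at 1.01, 0.819, and 1.37 FPKM in *Cfb*-/- control mice and at 5.49, 6.13, 3.12, and 3.69 FPKM in *Cfb*-/- diabetic mice. Compared with WT mice, the *Cfb*-/- controls were on the lower side and the *Cfb*-/- diabetic mice on the higher side, with overlap in both cases. The log2 rise in diabetes was 1.22 ± 0.26 (SE, adjusted p = 0.00198) in WT mice and 1.99 ± 0.26 (SE, adjusted p = 6.52e-05) in *Cfb*-/- mice, where it was the highest of the 10. *Rela*, which encodes p65, had log2 rises of 0.40 (adjusted p = 0.0210) in WT mice and 0.60 (adjusted p = 0.00245) in *Cfb*-/- mice.

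Both inhibitors rose. *Nfkbia* (chr12:55489409-55492647) encodes IκBα, which returns NF-κB dimers to the cytoplasm, and was the most abundant of the 10 genes in all 4 groups. Its FPKM was 15.5, 10.96, and 11.5 in WT control mice and 22.2, 27.6, 23.6, and 24.0 in WT diabetic mice. It was 14.4, 11.5, and 13.5 in *Cfb*-/- control mice and 24.8, 24.3, 20.1, and 22.0 in *Cfb*-/- diabetic mice. The groups did not overlap, although the rise was the lowest of the 10, at 0.95 ± 0.13 (SE, adjusted p = 8.13e-05) on the log2 scale in WT mice and 0.79 ± 0.13 (SE, adjusted p = 3.72e-04) in *Cfb*-/- mice. It was also the 1 gene of the 10 for which the mean of *Cfb*-/- diabetic mice was below that of WT diabetic mice.

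*Tnfaip3* (chr10:19000910-19015410) encodes A20, a ubiquitin-editing enzyme that shuts off signaling at the receptor complex. It was at 0.804, 0.549, and 0.839 FPKM in WT control mice and at 2.34, 1.99, 2.18, and 2.27 FPKM in WT diabetic mice. It was at 1.04, 0.800, and 0.995 FPKM in *Cfb*-/- control mice and at 2.95, 2.67, 1.90, and 2.35 FPKM in *Cfb*-/- diabetic mice. The mean FPKM was 3.004-fold higher in diabetes in WT mice (adjusted p = 3.35e-05) and 2.61-fold higher in *Cfb*-/- mice (adjusted p = 1.08e-04). Its control levels were on the higher side in *Cfb*-/- mice, with overlap.

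*Icam1* (chr9:21015940-21028814) encodes the adhesion molecule by which endothelium and injured tubular cells bind leukocytes, and it served as a target that acts outside the pathway. It was at 7.26, 7.22, and 8.19 FPKM in WT control mice and at 18.2, 16.8, 16.9, and 18.6 FPKM in WT diabetic mice. It was at 6.73, 7.21, and 7.07 FPKM in *Cfb*-/- control mice and at 22.4, 23.5, 14.8, and 16.9 FPKM in *Cfb*-/- diabetic mice. The spread within groups was small except in *Cfb*-/- diabetic mice, where mice 1 and 2 were the highest and mouse 3 the lowest of all 8 diabetic mice. The log2 rise was 1.21 ± 0.14 (SE, adjusted p = 2.36e-05) in WT mice and 1.43 ± 0.14 (SE, adjusted p = 7.81e-06) in *Cfb*-/- mice.

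**Figure D2:**
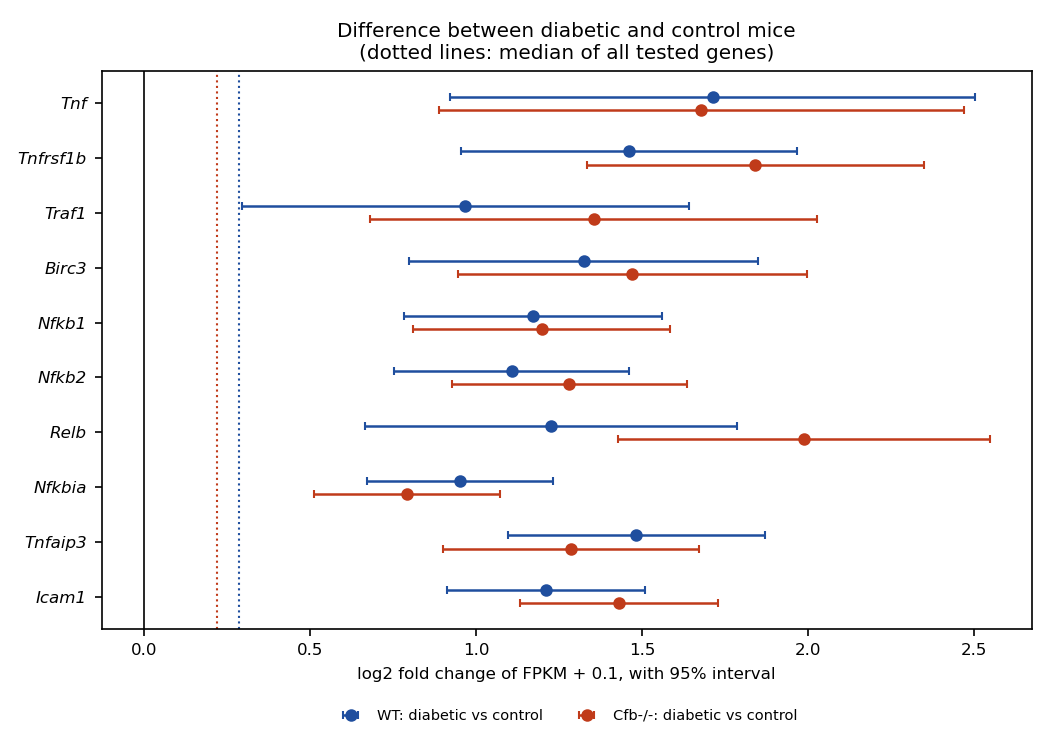
Log2 fold change of FPKM + 0.1 between diabetic and control mice (x axis) for the 10 NF-κB genes (y axis), in WT mice (blue) and *Cfb*-/- mice (red), with 95% intervals as bars and the median of all tested genes as dotted lines. All 20 intervals lie above 0, and those of each gene overlap between genotypes.

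Per kilobase of transcript, the order of the mean levels was *Nfkbia*, *Icam1*, *Nfkb1*, *Nfkb2*, *Birc3*, *Relb*, *Tnfrsf1b*, *Tnfaip3*, *Traf1*, and *Tnf* in WT control mice. The order was the same in WT diabetic mice and in *Cfb*-/- control mice, and in *Cfb*-/- diabetic mice *Relb* (4.61 ± 1.43 FPKM, SD) and *Birc3* (4.48 ± 1.08 FPKM, SD) changed places. In WT control mice the ranges of *Birc3*, *Relb*, and *Tnfrsf1b* overlapped, so that these 3 neighbours did not differ beyond their spread, and the other neighbours did not overlap.

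The second comparison asked whether the loss of *Cfb* altered these genes in diabetic kidneys. Between *Cfb*-/- and WT diabetic mice 0 of 10 genes passed the test (limma, adjusted p = 1 for each), 0 of 10 had an unadjusted p under 0.05, and the groups overlapped for all 10, whereas 1.86% of tested genes were higher and 0.885% lower without overlap. Over all tested genes 0.00671% were called, which was *Cfb* alone, and 3% had an unadjusted p under 0.05. The log2 difference (*Cfb*-/- minus WT) ranged from -0.09 for *Nfkbia* (95% interval -0.35 to 0.17) to 0.37 for *Relb* (-0.15 to 0.89), with a median of 0.12 over the 10 genes and 0.04 over all tested genes. *Tnf*, at 0.645 ± 0.326 FPKM (SD) in *Cfb*-/- diabetic mice and 0.573 ± 0.168 FPKM (SD) in WT diabetic mice, differed by 0.08 on the log2 scale, with an interval of -0.66 to 0.81 that leaves differences in either direction possible. The interval was narrowest for *Nfkbia*, and for *Icam1* it ran from -0.16 to 0.39.

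*Cfb*-/- diabetic mice 1 and 2 stood apart. Mouse 1 was among the top 2 of 14 mice for 10 of 10 genes and mouse 2 for 9 of 10, as they were for 35.7% and 27.8% of tested genes. Mice 3 and 4 were below the group mean (on the log2 scale) for all 10 genes. Summed marker FPKM of several cell types differed between the same mice. Macrophage markers were at 253 and 250 in mice 1 and 2 and at 146 and 162 in mice 3 and 4, pan-leukocyte markers at 113 and 131 against 71.4 and 94.6, and injured tubule markers at 203 and 165 against 101 and 120. Podocyte markers were at 131 and 136 against 95.2 and 89.3, whereas proximal tubule markers were lower in mice 1 and 2, at 667 and 769 against 1263 and 1062. Among WT diabetic mice, mice 1 and 4 were higher than mice 2 and 3 for markers of macrophages (223 and 237 against 163 and 148), of leukocytes (112 and 132 against 81.9 and 95.2), and of podocytes (123 and 127 against 79.8 and 73.6). The mean of the 10 genes on the log2 scale was also higher (2.17 and 2.23 against 1.83 and 1.96). Markers of injured tubule (129 and 167 against 149 and 129) and of proximal tubule (1168 and 919 against 1089 and 931) did not divide the WT mice in that way. This division of WT mice was made after the values were seen. The part of these cell types in the levels of the 10 genes was not tested. Without *Cfb*-/- diabetic mice 1 and 2, an alternative chosen after the values were seen, 8 of 10 genes rose in diabetes in *Cfb*-/- mice, beside 13.3% of tested genes called higher in that fit, and *Tnf* (1.12, adjusted p = 0.0606) and *Traf1* (0.85, adjusted p = 0.0832) did not pass. The difference from WT diabetic mice was then below 0 for all 10 genes, from -0.48 for *Tnf* to -0.010 for *Relb*, and 0 of 10 passed. Over all tested genes 53.7% were below 0 (median -0.017). Mice 1 and 2 were left out for their high levels of these same genes. Lower values for the 10 genes thus follow from that choice and say nothing about genotype.

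**Figure D3:**
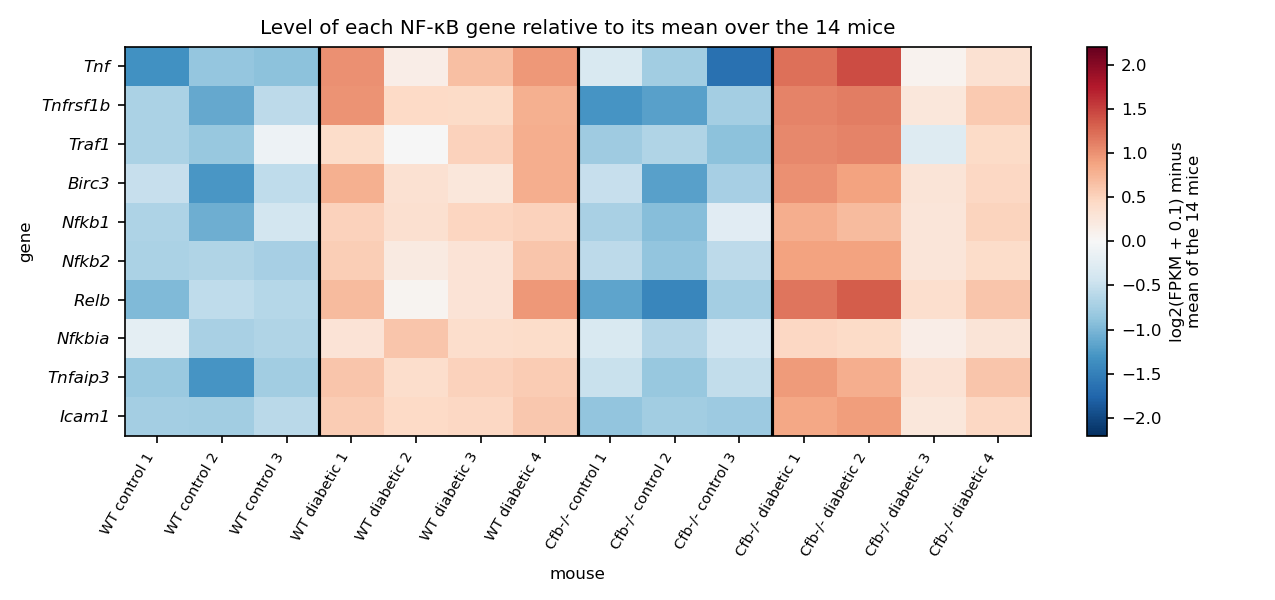
Level of each NF-κB gene (rows) in each mouse (columns, groups divided by black lines) as log2(FPKM + 0.1) minus the gene's mean over the 14 mice (color scale). *Cfb*-/- diabetic mice 1 and 2 hold the darkest red in most rows, and control columns are blue or pale.

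Between *Cfb*-/- and WT control mice 0 of 10 genes passed (limma), 0 of 10 had an unadjusted p under 0.05, and 0.00671% of tested genes were called, again *Cfb* alone, whereas 17.5% had an unadjusted p under 0.05. The groups did not overlap for *Icam1*, which was lower in *Cfb*-/- control mice by a log2 difference of -0.11 (95% interval -0.42 to 0.21), beside 7.12% of tested genes lower and 6.67% higher without overlap. *Relb* had the lowest difference, at -0.39 (interval -0.99 to 0.20), and *Tnfaip3* the highest, at 0.34 (interval -0.07 to 0.75).

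The third comparison asked whether the response to diabetes differed between genotypes, by the interaction of genotype with diabetes. For this, 0 of 10 genes and 0 of 14912 tested genes passed (limma), although 5.77% of tested genes had an unadjusted p under 0.05. *Relb* had the highest interaction, 0.76 on the log2 scale (95% interval -0.03 to 1.55, adjusted p = 0.779). The other 9 genes lay between -0.20 for *Tnfaip3* and 0.39 for *Traf1*, and the interval of each of the 10 included 0. The interval for *Traf1* ran from -0.56 to 1.34, so that both a smaller and a much larger rise in *Cfb*-/- mice lay within it.

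**Figure D4:**
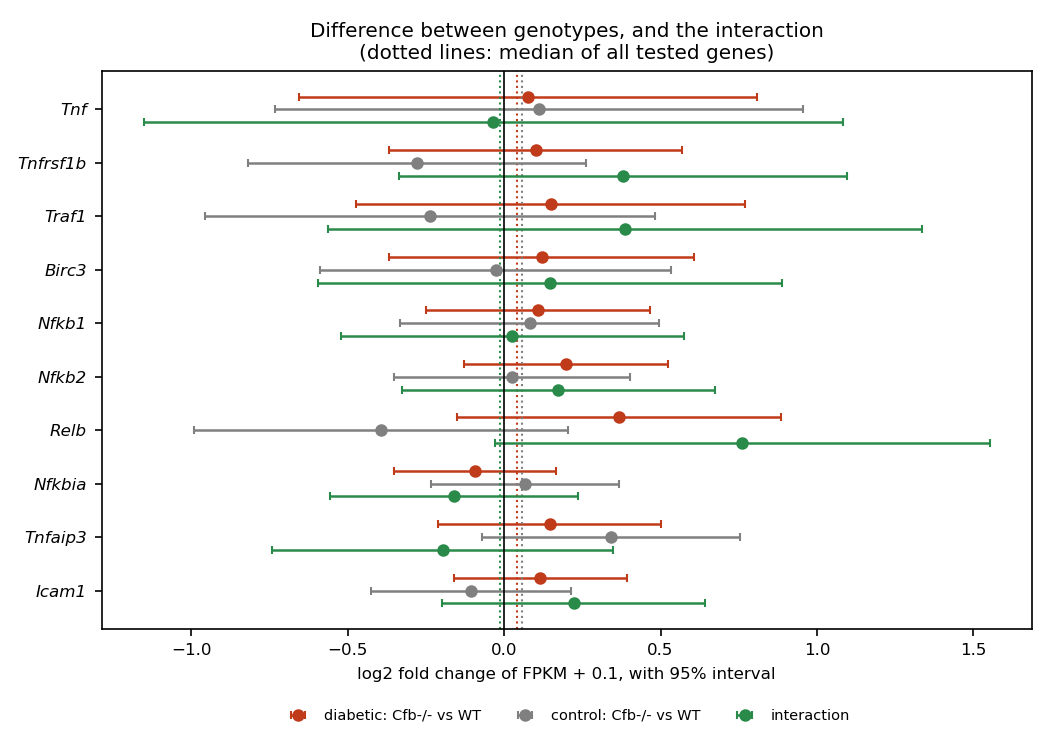
Log2 difference of FPKM + 0.1 (x axis) for the 10 NF-κB genes (y axis) between *Cfb*-/- and WT diabetic mice (red), between *Cfb*-/- and WT control mice (gray), and for the interaction (green), with 95% intervals as bars and medians of all tested genes as dotted lines. All 30 intervals include 0, with *Relb* farthest from 0 for the interaction.

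The 10 genes varied together. Over the 14 mice the 45 gene pairs had a median Pearson's r of 0.930 on the log2 scale, from 0.797 for *Nfkbia* with *Traf1* to 0.981 for *Icam1* with *Tnfrsf1b*. This includes the shift between control and diabetic mice, which the genes share with many others. For deviations from the group means the median was 0.672, from -0.012 for *Tnf* with *Nfkbia* to 0.917 for *Tnfaip3* with *Birc3*, and 44 of 45 were above 0. Within groups *Nfkbia* followed the mean of the other 9 genes least (r = 0.334), and *Nfkb2* followed it most (r = 0.880). Beside this, 11373 other genes had a median r with the mean of the 10 of 0.187 within groups and 0.444 over the 14 mice. The mean deviation of the 10 genes was 0.31 and 0.32 in *Cfb*-/- diabetic mice 1 and 2 and -0.45 and -0.18 in mice 3 and 4. In all other mice it lay between -0.22 and 0.18. All values of a mouse come from 1 library and share its depth and cell makeup, so these correlations are descriptions.

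Of 50 other genes of the pathway, all tested, 27 rose (beside 36.2% of all tested genes), 0 fell, and 23 did not pass in the WT comparison, and the median change was 0.50 on the log2 scale. In *Cfb*-/- mice 24 rose (beside 27.4%), 1 fell, and 25 did not pass, with a median of 0.54. The gene that fell was *Chuk*, which encodes the kinase IKKα (log2 change -0.46, adjusted p = 0.0481). Its mean was 44.3 FPKM in *Cfb*-/- control mice against 30.6 FPKM in WT control mice. In diabetic mice it was 32.5 FPKM in *Cfb*-/- and 32.4 FPKM in WT mice. *Ikbkb*, which encodes IKKβ, had log2 changes of 0.39 (adjusted p = 0.0657) in WT mice and 0.23 (adjusted p = 0.304) in *Cfb*-/- mice. Among genes with a mean log2 value of at least 0, the 5 changes of largest size in WT mice were those of *Tlr2*, *Nfkbiz*, *Tlr4*, *Ltb*, and *Tnfrsf12a*. In *Cfb*-/- mice *Tnfsf13b* (1.98), *Cd40* (1.90), and *Nfkbie* (1.69) rose by more than *Tlr4* and *Nfkbiz*. *Tlr2*, a receptor for bacterial lipoproteins, rose from 0.565 to 0.816 FPKM in WT control mice to 3.46 to 4.44 FPKM in WT diabetic mice, with a log2 rise of 2.41 (adjusted p = 2.03e-05) in WT mice and 2.42 (adjusted p = 2.12e-05) in *Cfb*-/- mice. *Tlr4*, the receptor for lipopolysaccharide, rose by 1.73 (adjusted p = 1.58e-04) and 1.495 (adjusted p = 5.40e-04). *Nfkbiz*, which encodes the nuclear protein IκBζ, rose by 1.74 (adjusted p = 7.49e-04) and 1.49 (adjusted p = 0.00273).

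*Ltb*, which encodes the ligand lymphotoxin β that triggers the noncanonical branch, rose by 1.57 (adjusted p = 0.00519) in WT mice and 2.19 (adjusted p = 6.47e-04) in *Cfb*-/- mice. *Tnfrsf12a*, the receptor for TWEAK and another trigger of that branch, was abundant, at 15.2 to 18.7 FPKM in WT control mice and 43.6 to 52.3 FPKM in WT diabetic mice, with log2 rises of 1.52 (adjusted p = 3.34e-05) and 1.77 (adjusted p = 1.24e-05). Between *Cfb*-/- and WT diabetic mice 0 of 50 passed (limma), with differences from -0.35 to 0.46. The groups did not overlap for *Traf5* (0.36) and *Map3k14* (0.28), which were higher in *Cfb*-/- mice, beside 1.86% of tested genes higher without overlap. These genes were named after their values were seen.

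Of 34 other known NF-κB targets 32 were tested, and *Il6* and *Csf2* were too low. In WT mice 22 rose (beside 36.2% of all tested genes), 0 fell, and 10 did not pass (median log2 change 1.22), and in *Cfb*-/- mice 23 rose (beside 27.4%), 0 fell, and 9 did not pass, with a median of 1.54. *Lcn2*, which encodes the tubular injury protein lipocalin 2, was at 0.636 to 1.17 FPKM in WT control mice and 38.8 to 88.2 FPKM in WT diabetic mice, and at 1.51 to 2.98 and 21.3 to 94.6 FPKM in *Cfb*-/- mice. Its log2 rise was 5.92 (adjusted p = 7.31e-07) in WT mice and 4.26 (adjusted p = 9.29e-06) in *Cfb*-/- mice. *C3*, the central complement component, was at 1.64 to 2.19 FPKM in WT control mice and 33.7 to 44.8 FPKM in WT diabetic mice, and it rose by 4.23 (adjusted p = 1.37e-08) and 3.75 (adjusted p = 7.47e-08).

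The list also held chemokines. *Cxcl1*, which attracts neutrophils, rose by 4.38 (adjusted p = 1.09e-05) in WT mice and 3.64 (adjusted p = 4.31e-05) in *Cfb*-/- mice. *Ccl2*, which attracts monocytes, rose by 2.67 (adjusted p = 8.29e-05) and 3.42 (adjusted p = 1.59e-05). *Cxcl10*, which attracts activated T cells, rose by 2.33 (adjusted p = 3.86e-05) and 2.72 (adjusted p = 1.46e-05). Between *Cfb*-/- and WT diabetic mice 0 of 32 targets passed (limma), with differences from -0.40 for *Lcn2* to 0.94 for *Ier3*, an early response gene (95% interval 0.37 to 1.51, adjusted p = 1, mean 79.9 against 41.1 FPKM). *Ier3* was the 1 target of 32 for which these groups did not overlap, higher in *Cfb*-/- diabetic mice, beside 1.86% of tested genes.

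**Figure D5:**
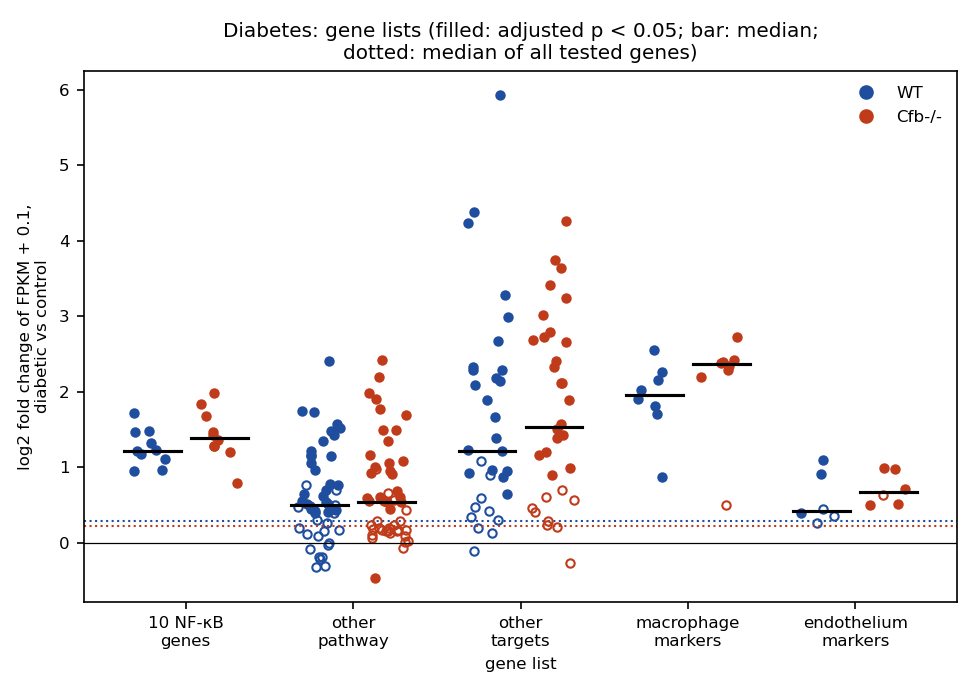
Log2 fold change of FPKM + 0.1 between diabetic and control mice (y axis) for each gene of 5 lists (x axis) in WT mice (blue) and *Cfb*-/- mice (red), filled where the adjusted p was under 0.05, with the list median as a bar and the median of all tested genes as dotted lines. All points of the 10 NF-κB genes are filled and above 0, whereas 23 of 50 other pathway genes in WT mice are open.

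Markers of several leukocyte types, but not most of those of neutrophils, rose with diabetes beside the 10 genes. Over all tested genes 36.2% were called higher in WT mice and 27.4% in *Cfb*-/- mice. All 8 macrophage markers rose in WT mice and 7 of 8 in *Cfb*-/- mice, and their summed FPKM was 50.3 to 64.5 in WT control, 148 to 237 in WT diabetic, 40.0 to 59.3 in *Cfb*-/- control, and 146 to 253 in *Cfb*-/- diabetic mice. The 5 pan-leukocyte markers rose in both genotypes, with sums of 26.3 to 41.4 in control mice and 71.4 to 132 in diabetic mice. T cell markers rose for 5 of 6 tested in both genotypes, and B cell markers for 3 of 4 in WT mice and 1 of 4 in *Cfb*-/- mice. Of 6 neutrophil markers 3 were tested, and their medians were below 0 (-0.27 in WT and -0.64 in *Cfb*-/- mice). *Csf3r* rose in both genotypes (1.29 and 0.86), *S100a9* fell in *Cfb*-/- mice (-1.83, adjusted p = 0.0374) and had a log2 change of -0.27 in WT mice that did not pass, and *S100a8* passed in neither (-0.28 and -0.64). *Ly6g* and *Elane* were listed at 0 in every mouse except in the WT diabetic group. Endothelial markers rose for 3 of 6 in WT mice and 5 of 6 in *Cfb*-/- mice, with sums of 79.3 to 102 and 112 to 123 in WT control and diabetic mice. The part of these cells in the levels of the 10 genes was not tested.

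Markers of injured tubule rose for 6 of 6 in both genotypes, with sums of 50.3 to 71.2 in control mice and 101 to 203 in diabetic mice. Proximal tubule markers fell for 3 of 5 in WT mice and 4 of 5 in *Cfb*-/- mice, beside 1487 and 955 of 14912 tested genes called lower. Urothelium and adipocyte markers, which differed between mice, rose for 6 of 6 and 5 of 5 in WT mice and for 0 of 6 and 0 of 5 in *Cfb*-/- mice, and their part in the levels of the 10 genes was not tested. Podocyte markers rose for 2 of 4 in WT mice and 4 of 4 in *Cfb*-/- mice. Those of thick limb and distal tubule rose for 1 of 4 in both, and those of collecting duct for 2 of 4 and 0 of 4. The shares of all tested genes called higher were 36.2% in WT and 27.4% in *Cfb*-/- mice, and some of these counts lie near them.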

How the data were processed

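The authors sequenced stranded mRNA libraries, and the submitters' processing notes name Trimmomatic, HISAT2, Cufflinks, HTSeq, DESeq, and the build GRCm38.p6. The deposited values are FPKM per gene and mouse. No header names the unit. It was taken from the values, since they hold fractions and their totals differ between mice. FPKM corrects for length and library size but not for composition.

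Values were transformed to log2(FPKM + 0.1) and fitted with limma 3.58.1 (R 4.3.3, mean-variance trend, a mean per group, all 14 mice). Genes entered the test with FPKM of 0.1 or more in 3 or more mice, and a Benjamini-Hochberg adjusted p under 0.05 was called. A count test was not used, because FPKM values are not counts. The fit was tested on simulated data for the WT diabetes comparison over 14912 genes: it recovered 48 of 70 changes of 1 on the log2 scale, 55 of 59 of 2, and 67 of 71 of 3, and called 8 of 14712 unchanged genes. The simulation drew independent noise for each gene and changed 200 genes, whereas 5392 were called higher and 1487 lower in the real comparison. Its rates thus do not describe the fit to the real data.

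The 10 genes and all lists were chosen with earlier results of these data known. Named from the 2 lists were the 5 called genes of largest change in WT mice with a mean log2 value of at least 0, *Rela*, *Ikbkb*, *Tnfrsf1a*, and genes of counts of 5 or fewer. Genes with a pattern most like the 10 were ranked by Pearson's r. Alternatives were other pseudocounts and filters, median-ratio scaling, quantile normalization, the replicate number as a block, the compared groups alone, and leaving out mice. Loci came from RefSeq, exons from GENCODE M21. Figures were drawn with Python 3.11.15 and matplotlib 3.10.9.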

Additional observations from a re-analysis of the deposited data

How the results depend on the processing

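In WT mice 8 to 10 of the 10 genes were called higher in diabetes over 15 alternatives, and in *Cfb*-/- mice 8 to 10 over 16, with no change of direction. The count of 8 of 8 with a filter of FPKM of at least 1 reflects fewer genes tested. In *Cfb*-/- mice the count was also 8 of 10 without *Cfb*-/- diabetic mice 1 and 2, where *Tnf* and *Traf1* did not pass. *Traf1* in WT mice was lost with quantile normalization, with the replicate block, and without WT diabetic mouse 4 (0.84, adjusted p = 0.0571) or WT control mouse 1 (0.90, adjusted p = 0.0566) or 2, and in *Cfb*-/- mice with quantile normalization (0.67, adjusted p = 0.0605). The cause was not tested. Quantile normalization set the median of all genes at -0.05 in both genotypes, and median-ratio scaling at 0.03 and -0.0088. Genotype comparisons and the interaction gave 0 of 10 under every alternative. Some directions held throughout, such as the *Relb* interaction (0.38 to 0.94) and the *Nfkbia* difference between diabetic mice (-0.20 to -0.032). Of single gene results under an alternative, 16 reversed between diabetic mice and 152 did not. For control mice 17 reversed and 121 did not, and for the interaction 22 and 196. Reversed values follow. In control mice the difference was -0.0071 for *Nfkb1*, -0.064 for *Nfkb2*, and -0.024 for *Nfkbia* with median-ratio scaling, and -0.0096 for *Tnf*, -0.052 for *Nfkb1*, and -0.094 for *Nfkb2* with quantile normalization. The interaction for *Tnf* was 0.016 and 0.026 with pseudocounts of 1 and 0.01 and 0.060 with quantile normalization. Without *Cfb*-/- diabetic mice 1 and 2, the difference between diabetic mice was -0.48 for *Tnf*, -0.082 for *Nfkb1*, -0.075 for *Nfkb2*, -0.010 for *Relb*, -0.052 for *Tnfaip3*, -0.17 for *Birc3*, -0.15 for *Icam1*, -0.35 for *Traf1*, and -0.25 for *Tnfrsf1b*, and the interaction was -0.16 for *Nfkb1*, -0.10 for *Nfkb2*, -0.14 for *Birc3*, -0.046 for *Icam1*, and -0.12 for *Traf1*. Mice 1 and 2 were left out for their high levels of the same genes, so lower values follow from that choice.

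Leaving out 1 mouse at a time, the difference between diabetic mice ran from -0.15 to 0.30 for *Tnf*, -0.026 to 0.44 for *Traf1*, and -0.020 to 0.27 for *Tnfrsf1b*. In control mice it ran from -0.18 to 0.48 for *Tnf*, -0.11 to 0.24 for *Nfkb1*, -0.024 to 0.12 for *Nfkb2*, -0.027 to 0.22 for *Nfkbia*, and -0.28 to 0.16 for *Birc3*. The interaction ran from -0.40 to 0.25 for *Tnf*, -0.13 to 0.22 for *Nfkb1*, and -0.044 to 0.40 for *Birc3*. Without WT control mouse 1, 1711 genes in place of 1 were called between control mice, and 0 of the 10.

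With the replicate number as a block, 9 of 10 genes rose in WT mice (*Traf1* 0.93, adjusted p = 0.0570) and 10 of 10 in *Cfb*-/- mice, and no other call changed. The numbers did not pair the mice, since deviations of the 19 same-numbered pairs correlated from -0.388 to 0.243, with 3 over 0.1. Low levels, as of *Tnf* and *Traf1*, rest on few reads, and the depth is unknown.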

Other observations

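The genes whose levels were most like the mean of the 10 NF-κB genes over the 14 mice, among 11373 other genes with a mean log2 value of at least 0, were *Cd44* (r = 0.994), which encodes the hyaluronan receptor, *Lcp2* (r = 0.994), which encodes an adaptor of leukocyte signaling, *Rasa3* (r = 0.992), *Ifngr1* (r = 0.991), which encodes a chain of the interferon-γ receptor, and *Rcn1* (r = 0.990). An r of at least 0.9 was reached by 1349 of these genes (11.9%), since many genes share the shift between control and diabetic mice. *Cd44* is also on the list of other NF-κB targets. For deviations from the group means the most alike genes were *Lcp2* (r = 0.971), *Fam189b* (r = 0.968), *Ifngr1* (r = 0.960), *Pld2* (r = 0.955), and *Nfkbie* (r = 0.949), which encodes the inhibitor IκBε, and an r of at least 0.9 was reached by 33 genes (0.290%). *Lcp2* and *Ifngr1* were thus among the 5 most alike by both measures. *Ifngr1* was abundant, at 11.7 to 31.0 FPKM, whereas *Lcp2* was at 0.294 to 2.40 FPKM.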
